A study of Mus musculus with 26 samples.

Results

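Neuropeptide precursors and granins are the secretory cargo of dense core vesicles, and 10 genes that encode them in the striatum are described here: *Penk*, *Pdyn*, *Tac1*, *Sst*, *Npy*, *Scg2*, *Scg5*, *Chga*, *Chgb* and *Vgf*. They were chosen by gene symbol. Each of the 3 deposited tables lists all 10 with 1 transcript each, among 8576 transcripts in the table of GS LRRK2 TG, 8576 in that of GS/DA LRRK2 TG and 9561 in that of LRRK2 KO. The authors' filter on low reads thus removed none of them.

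A neuropeptide is translated as a long precursor on ribosomes of the endoplasmic reticulum, sorted into dense core vesicles with granins, and cleaved by prohormone convertases on the way to release. In the striatum, spiny projection neurons of the indirect pathway make enkephalin from *Penk*, those of the direct pathway make dynorphin from *Pdyn* and substance P from *Tac1*, and a class of interneurons makes both somatostatin and neuropeptide Y. Because vesicle cargo leaves the cell when neurons fire, the level of these mRNAs is widely used as a slow readout of dopamine signalling and neuronal activity in the striatum.

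Ribosome footprints and total RNA of the caudate putamen of C57BL/6 mice were sequenced, at 3 months of age per the labels and 3 to 4 months in the study's methods, from pools of 3 mice of mixed sex. The groups were mice with a G2019S LRRK2 transgene (GS LRRK2 TG, 2 footprinting and 2 RNA-Seq samples), mice with the kinase-dead G2019S/D1994A LRRK2 transgene (GS/DA LRRK2 TG, 2 and 2), non-transgenic mice (non-TG control, 3 and 3), LRRK2 knockout mice (LRRK2 KO, 3 and 2) and wild-type mice (WT, 3 and 2). Each transgene came from a single high-copy line, was driven by CaMKII-tTA, which acts in forebrain neurons, and was switched on after weaning by withdrawing doxycycline. The comparisons ask how mutant, kinase-dead or missing LRRK2 alters translation in the striatum.

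Each table gives the mean of normalised reads in the coding sequence for a genotype and its control, by assay. For 10 of the 12 columns the reads of 2 single libraries could be recovered from the digits of the means, for 98.6% to 99.9% of transcripts, and they are given here as normalised reads of library 1, the shallower, and library 2. The columns of the non-TG control in the GS LRRK2 TG table could not be resolved, so that comparison has no values of single control libraries. Reads in coding sequences ranged over the footprinting libraries from 7478346 to 8502040 for GS LRRK2 TG, from 8276448 to 19550632 for GS/DA LRRK2 TG with its control, and from 2865413 to 6032948 in the LRRK2 KO table. The RNA-Seq libraries had 8694666 to 14535839, 11413198 to 14009557 and 3130957 to 10869437 reads in the same order. Each lysate, a pool of tissue from several mice, was divided for both assays, but the means do not tell which recovered footprinting and RNA-Seq libraries share a lysate. Library numbers name no replicate of the labels. Tables were normalised separately, so levels are compared within a table, and both transgenic comparisons share non-TG control samples.

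The targeted gene, *Lrrk2*, was read first. In the LRRK2 KO table it had 690.1 and 400.3 normalised footprinting reads in the WT libraries against 149.7 and 102.02 in the LRRK2 KO libraries, and 733.3 and 1278 RNA-Seq reads against 270.02 and 423.1. Both assays separated the genotypes in the direction of the labels, with reads left in the knockout. In the GS/DA LRRK2 TG table it had 1224 and 1445 footprinting reads in the non-TG control against 4766 and 7267 in GS/DA LRRK2 TG, while the RNA-Seq libraries held 560.2 and 5233 against 5038 and 403.7 and overlapped. In GS LRRK2 TG the footprinting libraries held 7052 and 3320 reads beside a control mean of 2524, and the RNA-Seq libraries 214.2 and 3550 beside 2105. The transgene was thus seen in the footprints of both transgenic groups and not in their RNA-Seq, where the libraries of a group differed from each other far more than the groups did.

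The labelled tissue was checked by its spiny neurons. Markers that all spiny neurons share were listed 8 of 8 in every table, 4 of 6 direct pathway symbols were listed in the transgenic tables and 5 of 6 in the LRRK2 KO table, and 4 of 5 indirect pathway symbols in all of them. *Ppp1r1b*, the most abundant per kilobase of the shared markers, had 32311, 42124 and 9040 footprinting reads in the control means of the 3 tables, taken in the order given at the start. Of cortical projection neuron markers 3 of 7 were listed in the transgenic tables and 7 of 7 in the LRRK2 KO table, so cortical RNA was measurable beside the striatal RNA.

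Before the genotypes are compared, the libraries of the LRRK2 KO table need description, because all 10 genes separate them. In footprinting, the deeper library had the higher normalised value for 10 of 10 genes in WT and 10 of 10 in LRRK2 KO. In RNA-Seq the deeper library had the lower value for 10 of 10 genes in both groups. That joint pattern held for 10 of 10 genes beside 22.7% of 9527 transcripts, and with each of the 4 differences at least 0.5 on the log2 scale for 10 of 10 beside 7.34%. This pattern was noticed after the values were seen.

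The differences between libraries were large in each group. WT footprinting was at least 1 higher (log2) in library 2 for 8 genes beside 10.4% of all transcripts, and LRRK2 KO footprinting for 8 genes beside 12.8%. RNA-Seq was at least 1 higher in library 1 for all 10 genes in WT, beside 5.79%, and for all 10 in LRRK2 KO, beside 4.65%. The median difference of the 10 genes, library 2 over library 1, was 1.58 in WT footprinting and 1.45 in LRRK2 KO footprinting, and it was -1.85 and -1.56 in RNA-Seq, where all transcripts had medians of -0.01, -0.01, 0.01 and 0.01. Within a group a gene's footprints or RNA thus differed by 1.57-fold to 4.81-fold between libraries of the same label, and the order of the libraries was the same for spiny neuron, interneuron and granin genes.

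Lists of cell markers and of peptide handling genes moved with this pattern to different degrees. It held for 5 of 5 listed microglia markers, 3 of 3 blood transcripts, 7 of 8 peptide receptors and 13 of 17 genes of peptide processing and dense core vesicles. It held for 3 of 5 direct pathway, 2 of 4 indirect pathway and 3 of 8 shared spiny neuron markers, 2 of 7 interneuron markers, 3 of 7 cortical projection neuron markers, 2 of 6 astrocyte markers, 1 of 3 choroid plexus transcripts and 0 of 6 oligodendrocyte markers. The listed markers of septum, pallidum and hypothalamus held it in 2 of 2 cases. With each difference at least 0.5 it was left in 5 of 5 microglia markers, 11 of 17 genes of peptide processing and dense core vesicles and 3 of 5 direct pathway markers. It was then left in 0 of 3 blood transcripts, 0 of 8 peptide receptors and 0 of 2 markers of septum, pallidum and hypothalamus, and in at most 2 of every other cell marker list. The summed level of the microglia markers, of which *C1qb* was the most abundant per kilobase, was 87.9 in WT footprinting library 1 and 629.2 in library 2, 99.3 and 727.1 in LRRK2 KO footprinting, 991.9 and 402.1 in WT RNA-Seq and 1351 and 416.9 in LRRK2 KO RNA-Seq. The summed shared spiny neuron markers were nearly level by comparison, at 33297 and 35811, 33070 and 39095, 57431 and 51715, and 63810 and 53695 in the same order. Several other sums rose with the peptide genes in footprinting. Direct pathway markers went from 716.8 to 1582 between the WT libraries and from 671.4 to 2062 between the LRRK2 KO libraries, indirect pathway markers from 851.4 to 1874 and from 959.6 to 2062, and astrocyte markers, led by *Slc1a2*, from 2651 to 5868 and from 2133 to 6662. The blood transcripts went from 1364 to 5375 and from 1537 to 2716, and the genes of peptide processing and dense core vesicles from 14289 to 26078 and from 13823 to 27122. The RNA-Seq sums of these lists went, in WT and then LRRK2 KO, from 2339 to 1391 and from 2463 to 1514 for direct pathway markers. Indirect pathway markers went from 4695 to 4812 and from 6949 to 4694, and astrocyte markers from 6810 to 4415 and from 4367 to 4208. Blood transcripts went from 9093 to 6039 and from 6883 to 6047, and peptide processing genes from 37440 to 19675 and from 37359 to 18166. Cortical projection neuron markers fell in RNA-Seq from 5245 to 2852 in WT and from 4488 to 2211 in LRRK2 KO. Oligodendrocyte markers were higher in RNA-Seq library 2 for 6 of 6 and 5 of 6. The part of any cell type, depth or any other difference between the libraries in the values of the peptide genes was not tested.

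**Figure D1:**
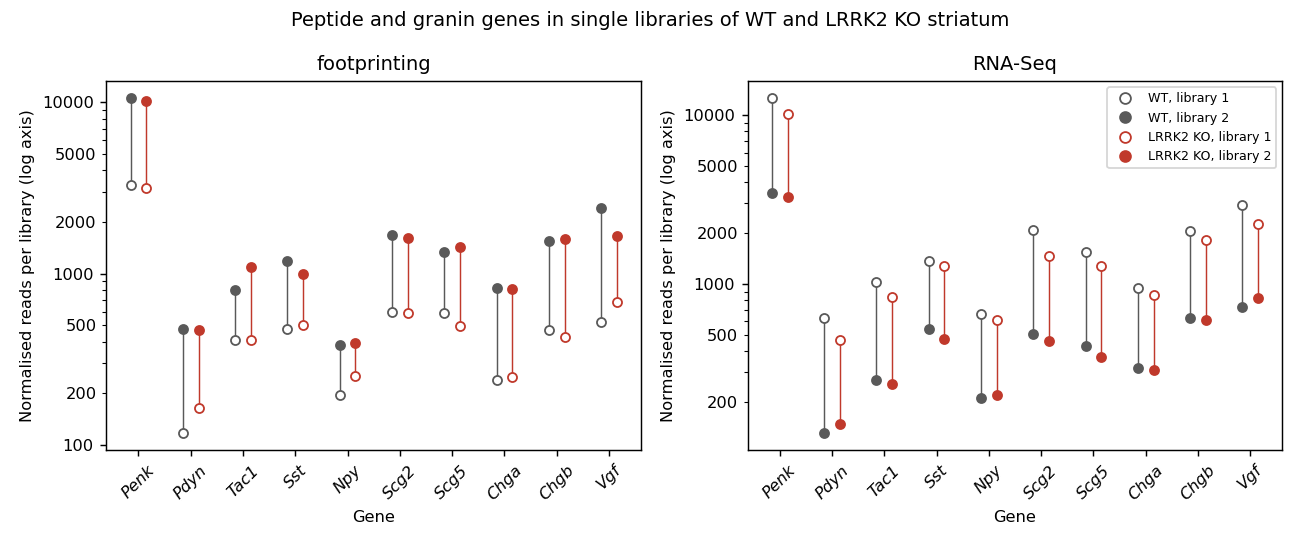
Normalised reads of the 10 genes (log axis) in the single WT and LRRK2 KO libraries of the LRRK2 KO table, footprinting on the left and RNA-Seq on the right, with a line joining the 2 libraries of a group. Library 2 is higher for 10 of 10 genes in both footprinting groups and library 1 for 10 of 10 in both RNA-Seq groups, and the genotypes overlap for every gene.

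The RNA-Seq libraries of the transgenic tables differ in another way, along base composition. Across transcripts, which are not independent replicates, Spearman's rho between the difference of the libraries (library 2 over library 1, log2) and the GC content of the coding sequence was -0.79 in GS LRRK2 TG (n = 8300), -0.78 in the non-TG control (n = 8299) and 0.80 in GS/DA LRRK2 TG (n = 8276), against -0.04 in WT (n = 9256) and -0.27 in LRRK2 KO (n = 9262). The footprinting libraries also differ along GC content, with a rho of 0.54 in WT, 0.23 in LRRK2 KO, 0.31 in GS LRRK2 TG, -0.43 in the non-TG control and -0.46 in GS/DA LRRK2 TG. *Vgf*, with a GC content of 65.5%, at the 98.4 percentile of the LRRK2 KO table, had 5896 and 494 normalised RNA-Seq reads in the GS LRRK2 TG libraries, 5462 and 488 in the non-TG control and 509 and 5258 in GS/DA LRRK2 TG. These are differences of 11.9-fold, 11.2-fold and 10.3-fold between libraries with the same label. *Penk*, *Pdyn* and *Sst* (54.2%, 57.3% and 61.0% GC) leaned the same way as *Vgf* in all 3 groups, *Scg2* and *Chgb* (49.4% and 53.1%) the other way, and *Tac1*, *Npy*, *Scg5* and *Chga* differed by at most 1.38-fold. Over the 10 genes the rho with GC content was -0.73 in GS LRRK2 TG, -0.75 in the non-TG control and 0.77 in GS/DA LRRK2 TG, near the values over all transcripts, although *Chga*, at 59.3% GC, *Npy*, at 54.1%, and *Tac1*, at 46.1%, differed little between libraries. Each resolved group holds 1 library of each kind, so its mean averages over this difference, and the part of it in the means was not tested.

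**Figure D2:**
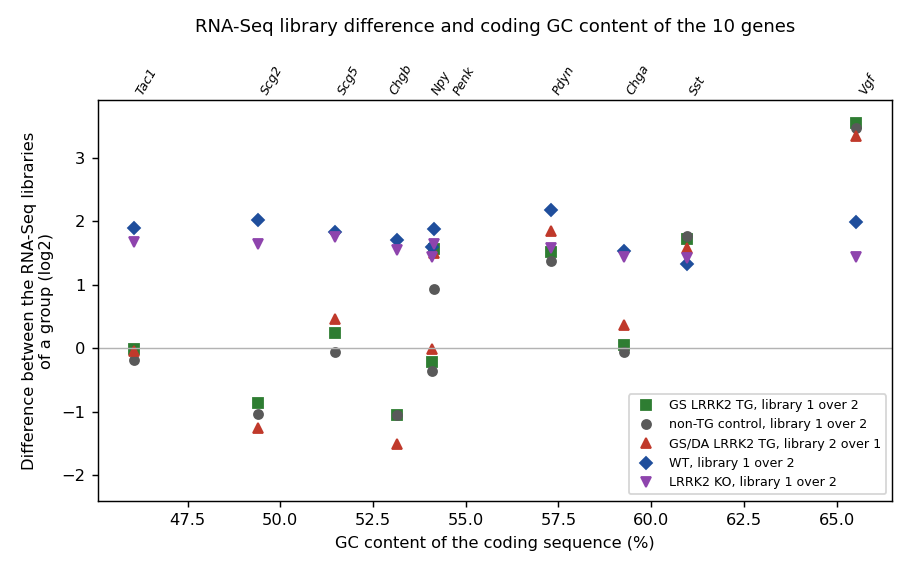
Difference between the RNA-Seq libraries of a group (log2) against the GC content of the coding sequence (%), 1 point for each gene and group, drawn as library 1 over library 2 and, for GS/DA LRRK2 TG, as library 2 over library 1. In GS LRRK2 TG, the non-TG control and GS/DA LRRK2 TG the difference runs from *Scg2* and *Chgb* below 0 to *Vgf* above 3, whereas in WT and LRRK2 KO all 10 genes lie above 1.

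The GS LRRK2 TG footprinting libraries also differ in cortical and spiny neuron markers. The 3 listed cortical projection neuron markers, led by *Slc17a7*, had a summed level of 2302 in library 1 and 431 in library 2, all 3 higher in library 1. Direct and indirect pathway markers had sums of 3518 and 3590 in library 1 against 5524 and 5729 in library 2, with 4 of 4 and 4 of 4 higher in library 2. *Penk*, *Scg5* and *Vgf* leaned with the spiny neuron markers, at the 97.6, 96.1 and 99.5 percentiles of the difference, and *Sst*, at the 2.19 percentile, leaned with the cortical markers. Interneuron markers were also higher in library 1 for 5 of 7, with sums of 4593 and 3602, and microglia markers for 5 of 5. Blood transcripts and oligodendrocyte markers were higher in library 2 for 3 of 3 and 5 of 6. *Chga*, *Pdyn*, *Tac1*, *Npy*, *Scg2* and *Chgb* stood between these, at the 17.8, 34.8, 42.5, 55.9, 83.04 and 87.8 percentiles, so the 2 spiny neuron precursors *Pdyn* and *Tac1* did not lean with *Penk*. The part of dissection or cell content in these differences was not tested.

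Levels between genes were compared as footprints per kilobase of coding sequence in the control means. *Penk* was highest in each table, at 30538, 42738 and 8626, which are ranks 25, 23 and 34 among all transcripts with a coding length. *Sst*, *Tac1*, *Scg5* and *Npy* followed in that order in all 3 tables, with 9045, 8575, 7282 and 3838 in the GS LRRK2 TG table. *Chga* was lowest throughout, at 1142, 1293 and 380.5, so the range from the lowest to the highest gene was 26.7-fold, 33.04-fold and 22.7-fold. *Scg2*, *Vgf* and *Pdyn*, at 2834, 2726 and 2539 in the GS LRRK2 TG table, were close to each other, and in the LRRK2 KO table the neighbours *Vgf* and *Scg2* as well as *Chgb* and *Pdyn* exchanged places. In the LRRK2 KO table the spread between libraries, up to 4.65-fold for *Vgf* in WT footprinting, was larger than the step between most neighbours in the order. Even *Chga* lay at the 76.5 percentile or higher of footprints per kilobase, so all 10 belong to the more heavily translated transcripts of this tissue.

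Translation efficiency (TE) is the log2 of the footprinting mean over the RNA-Seq mean. In the non-TG control it was highest for *Tac1* among the 10 genes, at 1.11 (95.4 percentile of all transcripts) when set beside GS LRRK2 TG and 1.27 (94.8 percentile) when set beside GS/DA LRRK2 TG, and lowest for *Chgb*, at -0.07 (55.7 percentile) and 0.04 (50.2 percentile). In the WT means the highest was *Scg5*, at -0.03 (86.2 percentile), before *Tac1* at -0.11 (82.6 percentile), and the lowest *Npy*, at -0.59 (53.0 percentile). The 10 genes thus ranged from the middle to the top of the TE distribution in each control, although the level of TE has no fixed zero between tables. The WT values average libraries that lean in opposite ways, such as 3299 and 10571 footprints beside 12665 and 3455 RNA-Seq reads of *Penk*.

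In the group means no comparison moved the genes as a body in footprinting. For GS LRRK2 TG the median footprinting change of the 10 genes was 0.07 on the log2 scale, beside 0.00 over all transcripts, with 7 of 10 above 0, beside 51.2% of all transcripts, and 0 of 10 changed by 0.5 or more in either direction, beside 0.338%. Without GS LRRK2 TG footprinting library 1 the median was 0.16, and without library 2 it was 0.06 with 2 genes past 0.5, beside 5.46% of all transcripts. The RNA-Seq median was 0.05 beside -0.02, with 6 of 10 above 0, beside 44.3%. *Scg2*, at -0.01, turned to above 0 under both other scalings. None of the 10 changed by 0.5 in RNA-Seq, beside 2.95%, a count that became 4 without RNA-Seq library 1, beside 47.6% of all transcripts, and 6 without library 2, beside 56.3%, with medians of 0.06 and 0.35.

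For GS/DA LRRK2 TG the median footprinting change was 0.00 beside -0.01 over all transcripts, with 5 of 10 above 0, beside 47.5%, and 1 of 10 changed by 0.5 or more in size, beside 0.816%, namely *Penk*. The single footprinting libraries give this median over 9 genes, without *Penk*, as 0.09 without non-TG control library 1, 0.12 without control library 2, 0.02 without GS/DA LRRK2 TG library 1 and 0.17 without its library 2. The RNA-Seq median was 0.05 beside 0.06, turned to -0.01 when changes were centred on the median of all transcripts, and had 6 of 10 genes above 0, beside 64.7%, and 0 of 10 past 0.5, beside 2.72%. *Sst*, at 0.00, turned to below 0 under both other scalings. Leaving out a library put 3 genes (non-TG control RNA-Seq library 1), 5 (control library 2), 5 (GS/DA LRRK2 TG library 1) or 6 (its library 2) past 0.5, beside 41.7%, 43.3%, 56.7% and 55.3% of all transcripts, with RNA-Seq medians of 0.01, -0.09, 0.10 and -0.27.

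For LRRK2 KO the median footprinting change was 0.00 beside 0.02, turned to -0.01 under both other scalings with *Chga* and *Chgb*, and 0 of 10 genes passed 0.5, beside 2.07%. Above 0 were 5 of 10, beside 54.4%. The RNA-Seq median was -0.25 beside 0.01, with 0 of 10 genes above 0 beside 51.3% of all transcripts, and 0 of 10 past 0.5, beside 3.18%. All 10 genes were below 0 under both other scalings too, where the median was -0.26 and -0.24. Matched libraries pair the WT and LRRK2 KO libraries that differ in the same way from the other library of their group. Between them the median RNA-Seq change was -0.29 in pair 1 and -0.06 in pair 2. In both pairs 7 of 10 genes went the same way, beside 48.1% of all transcripts. All 7 were lower in both, beside 2249 of 9534 transcripts, and 0 of 10 were higher in both, beside 2337. *Pdyn*, *Npy* and *Vgf* were lower in pair 1 and higher in pair 2.

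These LRRK2 KO values changed in size and sign when 1 library was left out. That sets 1 library against the mean of 2 unlike libraries, so the difference between libraries enters the change. Such values show the size of that difference and do not test the genotype. Without WT RNA-Seq library 1 the median RNA-Seq change was 0.96 and without WT library 2 it was -0.91, with 10 genes past 0.5 each time, beside 8.75% and 29.3% of all transcripts. Without LRRK2 KO RNA-Seq library 1 it was -1.22, again with 10 genes past 0.5, beside 17.5%, and without library 2 it was 0.37 with 0 genes past it, beside 16.4%. In footprinting the median became -0.61 without WT library 1, 0.95 without WT library 2, 0.56 without LRRK2 KO library 1 and -0.96 without LRRK2 KO library 2, with 7, 10, 6 and 9 genes past 0.5, beside 18.9%, 19.97%, 15.3% and 20.97%.

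The lower RNA-Seq means of the 10 genes in LRRK2 KO came beside changes of cell markers. Of the cortical projection neuron markers, led by *Slc17a7*, 0 of 7 were above 0 in RNA-Seq, and their sum went from 4048 to 3350. Of the astrocyte markers 1 of 6 was above 0, and their sum went from 5613 to 4287, with *Slc1a2* alone going from 2806 to 1759. Blood and choroid plexus transcripts had 0 of 3 and 1 of 3 above 0. Their sums went from 7566 to 6465 and from 1599 to 1353. Of the oligodendrocyte markers 2 of 6 were above 0, and their sum went from 29276 to 27824. Genes of peptide processing and dense core vesicles had 5 of 17 above 0, and peptide receptors 3 of 8. The sums of these 2 lists went from 28557 to 27763 and from 643.1 to 642.5. The sums of indirect pathway, direct pathway and shared spiny neuron markers went from 4753 to 5821, from 1865 to 1989 and from 54573 to 58753, and that of microglia from 697.0 to 884.1. The part of these lists in the values of the peptide genes was not tested. A fall in RNA per cell and a loss of the cells that make it cannot be told apart in bulk tissue.

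**Figure D3:**
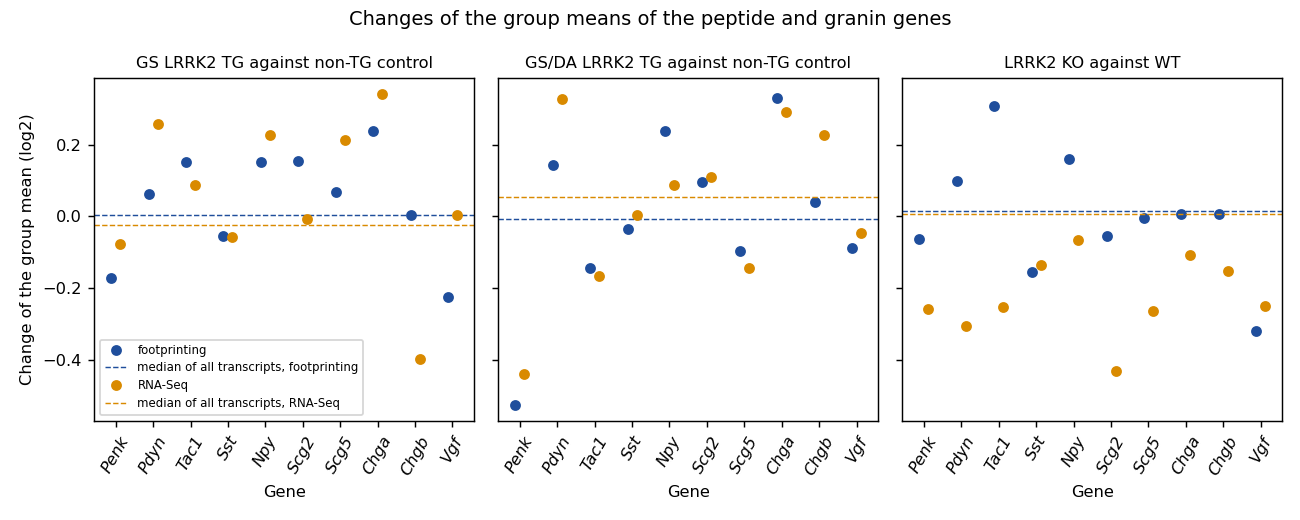
Log2 change of the group mean of each gene in footprinting (blue) and RNA-Seq (orange) for each genotype against its control, with dashed lines at the median over all transcripts. *Penk* in GS/DA LRRK2 TG is the lowest point in both assays there, and in LRRK2 KO all 10 RNA-Seq points lie below 0.

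No gene of the 10 was called by limma on the recovered libraries, adjusted by Benjamini-Hochberg over all transcripts at 0.05. For GS/DA LRRK2 TG, limma called 0 of 9 genes for the interaction of genotype and assay (0% of 8407 transcripts), 0 of 9 for footprinting (0% of 8428) and 0 of 10 for RNA-Seq (0% of 8513). At an unadjusted p under 0.05 these counts were 0 genes each, beside 0, 155 (1.84%) and 0 of all transcripts. For LRRK2 KO, limma called 0 of 10 genes for each of the 3 terms (0% of 9527, 9549 and 9534 transcripts), and at an unadjusted p under 0.05 again 0 genes, beside 4 (0.0420%), 16 (0.168%) and 7 (0.0734%) of all transcripts. *Lrrk2* itself was not called either. These fits held no term for the matched libraries, so the differences between libraries of a group counted as error. They could call little, and the counts of 0 do not show that the genes were unchanged. With the matched libraries as a block limma again called 0 of the genes. With 2 libraries against 2, an exact permutation test of a single gene cannot go below a two-sided p of 0.333, so no such test was made. For GS LRRK2 TG no fit was made, as its control libraries could not be resolved.

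*Penk*, the enkephalin precursor of indirect pathway neurons, showed the largest change of the 10 genes in any comparison. Its group means in the GS/DA LRRK2 TG table were 34361 footprinting reads in the non-TG control and 23835 in GS/DA LRRK2 TG, a change of -0.53 at the 0.245 percentile of all transcripts, and 20309 and 14957 RNA-Seq reads, a change of -0.44 at the 0.35 percentile. The RNA-Seq libraries held 26666 and 13953 normalised reads in the control, and the GS/DA LRRK2 TG libraries matched to them 22094 and 7821. Each GS/DA LRRK2 TG library was thus lower than its match, with changes of -0.27 and -0.83, while the groups overlapped. In footprinting 2 pairs of whole reads fit each mean, giving 41374 and 27348 or 37568 and 31154 in the control, and 28382 and 19289 or 23821 and 23850 in GS/DA LRRK2 TG. GS/DA LRRK2 TG lay below both control libraries in 3 of the 4 combinations and overlapped them in 1, and the change within a matched pair ran from -0.80 to -0.20 over all of them. The limma effect for RNA-Seq was -0.55 (SE 0.77, unadjusted p 0.514, adjusted p 1.0), and with the matched libraries as a block its SE was 0.20 (unadjusted p 0.0182, adjusted p 1.0).

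The fall of *Penk* in GS/DA LRRK2 TG came beside changes of cell markers in the same samples. Summed indirect pathway markers, with *Adora2a* the most abundant per kilobase, went from 6869 to 6159 footprinting reads and from 13119 to 12618 RNA-Seq reads, and 3 of the 4 listed were lower in footprinting. Summed direct pathway markers, led by *Drd1a*, went from 7139 to 5553 and from 5009 to 4148, and the markers that all spiny neurons share, led by *Ppp1r1b*, from 154344 to 130762 and from 135662 to 121962. The listed cortical projection neuron markers, *Slc17a7*, *Tbr1* and *Neurod6*, rose from a sum of 1343 to 3339 in footprinting and from 1440 to 3219 in RNA-Seq, each by at least 1 on the log2 scale in both assays, while the other 4 of that list are not in the table. Summed choroid plexus transcripts, led by *Ttr*, fell more than *Penk* in the means, by 0.93 in footprinting and 0.60 in RNA-Seq, and those of blood by 0.32 and 0.22. The choroid plexus sums were 26078 and 5320 in the control footprinting libraries against 5495 and 10984 in GS/DA LRRK2 TG. In RNA-Seq they were 18893 and 5053 against 3262 and 12564 in the matched libraries. That fall thus rests on control library 1 in each assay, and the pairs went opposite ways. The spiny neuron sums fell less than *Penk*, by 0.16, 0.36 and 0.24 in footprinting, while *Drd1a* alone changed nearly as much, with -0.50 in footprinting and -0.39 in RNA-Seq. The part of tissue composition in its fall was not tested.

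In the other comparisons *Penk* changed less. GS LRRK2 TG footprinting held 16568 and 27036 reads beside a control mean of 24552, and RNA-Seq 25697 and 8681 beside 18145. The transgenic libraries lay on both sides of the control mean in each assay. WT footprinting held 3299 and 10571 reads and LRRK2 KO footprinting 3142 and 10134, with 12665 and 3455 RNA-Seq reads in WT against 10198 and 3265 in LRRK2 KO. Matched libraries were within 0.08 of each other (log2), apart from the first RNA-Seq pair with a change of -0.31, and the libraries of each group were 3.12-fold to 3.67-fold apart.

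*Pdyn*, the dynorphin precursor of direct pathway neurons, was higher in the means of both transgenic groups. Its footprinting libraries held 2329 and 2335 reads in the non-TG control and 2797 and 2357 in GS/DA LRRK2 TG, so that the groups did not overlap, by a margin of 22 reads between 2335 and 2357. RNA-Seq held 1515 and 578 against 2063 and 568 in the matched libraries, which is 0.44 higher in pair 1 and a change of -0.03 in pair 2. In GS LRRK2 TG the footprinting libraries, at 2055 and 1890, lay at or above the control mean of 1889, while RNA-Seq at 1972 and 683 lay on both sides of 1109. The rise of the RNA-Seq mean in GS/DA LRRK2 TG (0.33) therefore rests on pair 1, and that in GS LRRK2 TG (0.26) could not be followed to single control libraries. In the LRRK2 KO table *Pdyn* was, beside *Npy*, the least read of the genes, with 117 and 472 footprints in WT against 164 and 468 in LRRK2 KO, and 625 and 130 RNA-Seq reads against 463 and 148. The pairs went opposite ways in both assays.

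*Tac1*, the substance P precursor of direct pathway neurons, was the only gene of the 10 whose RNA-Seq libraries were all lower in GS/DA LRRK2 TG than in the non-TG control. They held 1726 and 1970 reads in the control and 1625 and 1669 in the matched GS/DA LRRK2 TG libraries, which is a non-overlapping fall in 1 of 10 genes, beside 1.60% of all transcripts. Its footprinting libraries, at 3621 and 5297 against 3901 and 4162, overlapped and went opposite ways in the pairs. Both GS LRRK2 TG footprinting libraries, 3790 and 3638, and both RNA-Seq libraries, 1640 and 1646, lay above the control means of 3344 and 1546. In RNA-Seq *Tac1* therefore stood on different sides of the control in the transgenic groups, a difference that was not tested.

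In LRRK2 KO *Tac1* had the largest TE difference of the 10 genes. Its footprinting libraries held 408 and 801 reads in WT and 408 and 1089 in LRRK2 KO, and its RNA-Seq libraries 1030 and 271 in WT and 838 and 255 in LRRK2 KO. The first footprinting pair was level and the second rose by 0.44, while RNA-Seq was lower in both pairs, with changes of -0.30 and -0.08. The means gave a TE difference of 0.56 with a z score of 1.98. Over the 4 ways of taking 1 matched pair of each assay the difference was 0.09 to 0.73, above 0 in 4 of 4 and past the z cutoff in 0 of 4. The limma interaction was 0.41 (SE 1.18, adjusted p 1.0), and with the matched libraries as a block its SE was 0.27 (unadjusted p 0.145, adjusted p 1.0).

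*Sst* and *Npy* are made by the same interneurons, and *Sst* separated no genotype from its control in either assay. *Sst* held 3779 and 4648 footprints in the non-TG control and 3296 and 4931 in GS/DA LRRK2 TG, with 3142 and 917 RNA-Seq reads against 3051 and 1017 in the matched libraries. The groups overlapped in both assays, and the mean changed by -0.03 and 0.00. GS LRRK2 TG had 3767 and 2291 footprints beside a control mean of 3148 and 2948 and 892 RNA-Seq reads beside 1997, on both sides of the mean each time.

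*Npy* was higher in both footprinting libraries of each transgenic group. It held 1136 and 1408 footprints in the non-TG control and 1509 and 1491 in GS/DA LRRK2 TG, without overlap, and 1225 and 1258 in GS LRRK2 TG beside a control mean of 1117. Between the non-TG control and GS/DA LRRK2 TG its RNA-Seq libraries overlapped, at 792 and 1021 in the control against 959 and 967 in the matched libraries. They lay at 905 and 1048 above the control mean of 833 in GS LRRK2 TG, where *Npy* was thus above the mean in every library, like *Chga*. Without the block limma gave a footprinting effect of 0.24 (SE 0.14, adjusted p 1.0) in GS/DA LRRK2 TG, and with the matched libraries as a block an unadjusted p of 0.0387 and an adjusted p of 0.330.

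In the LRRK2 KO table both interneuron genes overlapped between the genotypes. *Sst* held 476 and 1185 footprints in WT and 499 and 991 in LRRK2 KO, and 1374 and 539 RNA-Seq reads against 1271 and 470. *Npy* held 196 and 382 footprints against 252 and 394, and 660 and 211 RNA-Seq reads against 612 and 220. Of the 10 genes these differed least between the LRRK2 KO footprinting libraries, by 1.57-fold for *Npy* and 1.98-fold for *Sst*. Interneuron markers as a list, led by *Pvalb*, had sums of 1175 and 1222 footprints and 1514 and 1473 RNA-Seq reads in the WT and LRRK2 KO means.

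*Chga*, chromogranin A, which helps form dense core vesicles, was the gene of the 10 with the steadiest rise in the transgenic groups. Its footprinting libraries held 1585 and 2008 reads in the non-TG control and 2138 and 2380 in GS/DA LRRK2 TG, and its RNA-Seq libraries 1258 and 1308 against 1769 and 1375 in the matched order. Both assays thus separated the groups without overlap, with changes of 0.43 and 0.24 in the footprinting pairs and of 0.49 and 0.07 in the RNA-Seq pairs. GS LRRK2 TG held 2056 and 1687 footprints beside a control mean of 1587 and 1700 and 1640 RNA-Seq reads beside 1317, again above it in every library. These values share control mice with the GS/DA LRRK2 TG comparison. In GS/DA LRRK2 TG the listed cortical projection neuron markers rose too, with footprinting sums of 1056 and 1630 in the control libraries against 2574 and 4104. In GS LRRK2 TG their sums fell, from 1612 to 1366 in footprinting and from 1851 to 1071 in RNA-Seq. Their part in the values of *Chga* was not tested.

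The test of *Chga* did not pass the adjustment. In GS/DA LRRK2 TG the limma footprinting effect was 0.34 (SE 0.16, unadjusted p 0.0777, adjusted p 1.0), higher in 2 of 2 pairs. With the matched libraries as a block the SE was 0.08, the unadjusted p 0.00437 and the adjusted p 0.173. The RNA-Seq effect was 0.28 (SE 0.47, adjusted p 1.0). In LRRK2 KO no such difference was seen, with 238 and 818 footprints in WT against 250 and 812, and 938 and 317 RNA-Seq reads against 855 and 310.

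In all, 4 of 9 genes with resolved libraries (*Pdyn*, *Npy*, *Scg2* and *Chga*) were higher in both GS/DA LRRK2 TG footprinting libraries than in both control libraries, beside 12.02% of all transcripts, and 0 of 9 were lower, beside 12.2%. *Penk*, not among the 9, was lower in 3 of the 4 combinations of its candidate reads. In RNA-Seq 1 of 10 (*Chga*) was higher, beside 1.77%, and 1 of 10 (*Tac1*) lower, beside 1.60%. Both GS LRRK2 TG footprinting libraries were above the control mean for 4 of 10 genes (*Pdyn*, *Tac1*, *Npy* and *Chga*), beside 19.6%, and below it for 0 of 10, beside 20.8%. Both RNA-Seq libraries were above it for 4 of 10 (*Tac1*, *Npy*, *Scg5* and *Chga*), beside 5.49%, and below it for 0 of 10, beside 8.27%. These 4 are the genes whose GS LRRK2 TG RNA-Seq libraries differed least, by at most 1.19-fold. Libraries that lie far apart, as for most transcripts there, more easily fall on both sides of a mean, so this count also depends on the library difference. Over the matched pairs 6 of 9 genes kept 1 direction in GS/DA LRRK2 TG footprinting, beside 60.6%, and 3 of 10 in RNA-Seq, beside 37.8%. In LRRK2 KO footprinting 4 of 10 did, beside 43.6%, and no gene was free of overlap: 0 of 10 were higher and 0 of 10 lower in footprinting, beside 6.21% and 6.40%, and likewise in RNA-Seq, beside 7.03% each way.

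**Figure D4:**
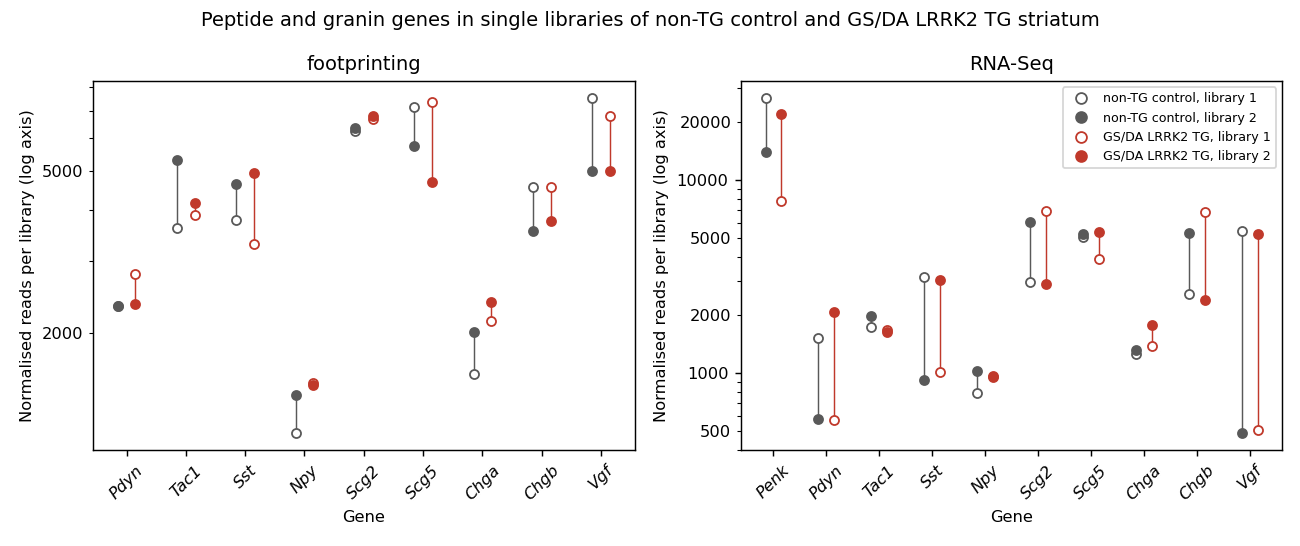
Normalised reads (log axis) of the genes in the single non-TG control and GS/DA LRRK2 TG libraries, footprinting on the left without *Penk*, whose libraries were not resolved, and RNA-Seq on the right, with a line joining the 2 libraries of a group. Footprints of *Chga*, *Npy*, *Scg2* and *Pdyn* are higher in both GS/DA LRRK2 TG libraries, and RNA-Seq of *Vgf* spans more than 10-fold within each group; library 1 of the control is matched to library 2 of GS/DA LRRK2 TG in RNA-Seq.

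*Scg2* is secretogranin II, the precursor of secretoneurin. Its GS/DA LRRK2 TG footprints, at 6683 and 6802, stood just above 6252 and 6370 in the non-TG control, a change of 0.10 and 0.09 in the pairs. GS LRRK2 TG had 5221 and 6457 footprints beside a mean of 5245. Its RNA-Seq libraries overlapped in GS/DA LRRK2 TG, with 2975 and 6085 in the control against 2888 and 6900 in the matched libraries. In LRRK2 KO it had the largest RNA-Seq fall in the means, -0.43, from 2078 and 504 reads in WT to 1453 and 460, lower in both pairs, with changes of -0.51 and -0.13. Its footprints barely moved there, at 594 and 1684 against 586 and 1609, so the TE difference was 0.38 with a z score of 1.32.

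*Scg5* encodes 7B2, the chaperone of prohormone convertase 2. It held 7154 and 5753 footprints in the non-TG control and 7375 and 4688 in GS/DA LRRK2 TG, and 5039 and 5222 RNA-Seq reads against 5376 and 3902 in the matched libraries. The first pair was slightly higher and the second lower in both assays. GS LRRK2 TG held 3836 and 5873 footprints beside a mean of 4632 and 5044 and 4254 RNA-Seq reads beside 4008. In the LRRK2 KO table it held 589 and 1335 footprints in WT against 494 and 1425, and 1542 and 425 RNA-Seq reads against 1268 and 370, lower in both RNA-Seq pairs.

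*Chgb*, chromogranin B, was the gene called TE up in GS LRRK2 TG, where TE up and TE down are a z score of the TE difference of at least 1.5 or at most -1.5. Its TE difference was 0.40 (z 1.63), from a footprinting change of 0.01 and an RNA-Seq change of -0.40. In the same RNA-Seq means the listed cortical projection neuron markers fell from a sum of 1851 to 1071, with 0 of 3 above 0. Their footprinting sum went from 1612 to 1366, and *Slc17a7* was TE up (z 2.89). The part of these markers in the values of *Chgb* was not tested. The RNA-Seq libraries held 1673 and 3480 *Chgb* reads beside a control mean of 3396, so library 1 lay far below it and library 2 just above, and the footprinting libraries held 2817 and 3658 beside 3225. Without RNA-Seq library 1 the *Chgb* call was lost, with RNA-Seq 0.03 above the control mean, and the 1 gene called TE up was *Vgf*. In GS/DA LRRK2 TG the RNA-Seq change was 0.23, with 2563 and 5295 in the control against 2390 and 6807 in the matched libraries, and footprints were 4548 and 3549 against 4551 and 3773. In the LRRK2 KO table *Chgb* held 469 and 1541 footprints in WT against 427 and 1594, and 2063 and 626 RNA-Seq reads against 1807 and 613.

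*Vgf*, the precursor of TLQP peptides and a transcript induced by activity and neurotrophins, varied most of the 10 genes between the libraries of GS LRRK2 TG and of WT in footprinting and between all transgenic and non-TG RNA-Seq libraries. GS LRRK2 TG footprinting held 2818 and 5809 reads beside a control mean of 5046, a difference between the libraries at the 99.5 percentile of all transcripts. Footprinting in the GS/DA LRRK2 TG table held 7541 and 4990 in the control against 6809 and 4989. In LRRK2 KO it went opposite ways in the footprinting pairs, from 518 to 685 in the first and from 2413 to 1660 in the second, and in the RNA-Seq pairs, from 2927 to 2250 and from 732 to 828. The mean footprinting change of -0.32 in LRRK2 KO, at the 3.93 percentile, was the largest fall of the 10 there and rests on the second pair alone.

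By the z score of the TE difference, TE up held for 1 of 10 genes in GS LRRK2 TG (*Chgb*), beside 8.01% of all transcripts, 0 of 10 in GS/DA LRRK2 TG, beside 3.65%, and 1 of 10 in LRRK2 KO (*Tac1*), beside 6.23%. TE down held for 0 of 10 in each, beside 3.91%, 7.36% and 6.02%. The median TE difference of the 10 genes was -0.08 beside 0.02 over all transcripts in GS LRRK2 TG, -0.03 beside -0.05 in GS/DA LRRK2 TG and 0.21 beside 0.02 in LRRK2 KO. Above 0 were 4 of 10, 4 of 10 and 8 of 10 genes, beside 54.8%, 33.5% and 53.02% of all transcripts. For GS LRRK2 TG the TE up count was 0 without footprinting library 2, beside 6.16% of all transcripts, where 3 genes were TE down, beside 4.45%, and 0 without RNA-Seq library 2, beside 9.28%. The median was 0.08 without footprinting library 1. In GS/DA LRRK2 TG 1 gene was TE up without non-TG control footprinting library 1, beside 3.56%, and 1 was TE down without control RNA-Seq library 1, beside 8.39%. Another count of 1 TE up, beside 7.51%, came without GS/DA LRRK2 TG RNA-Seq library 2, where the median was 0.26.

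The LRRK2 KO median of TE changed sign with the library left out, but not over the 4 combinations of matched pairs. It was -0.34 without WT footprinting library 1, 1.26 without WT footprinting library 2, 0.81 without LRRK2 KO footprinting library 1 and -0.65 without LRRK2 KO footprinting library 2. It was -0.95 without WT RNA-Seq library 1, 0.84 without WT RNA-Seq library 2, 1.19 without LRRK2 KO RNA-Seq library 1 and -0.39 without LRRK2 KO RNA-Seq library 2. The TE up count in that order was 0, 8, 7 and 0 for the footprinting libraries, beside 5.61%, 8.79%, 7.75% and 2.45% of all transcripts, and 0, 7, 10 and 0 for the RNA-Seq libraries, beside 4.87%, 5.65%, 6.51% and 6.02%. The TE down count was 1, 0, 0 and 3, beside 6.75%, 2.89%, 3.47% and 8.66%, and then 10, 0, 0 and 1, beside 6.58%, 6.16%, 4.38% and 4.56%. Between matched libraries, *Penk*, *Tac1*, *Scg2* and *Chga* had a TE difference above 0 in 4 of 4 combinations, which is 4 of 10 genes beside 12.3% of all transcripts, and their lowest values were 0.01, 0.09, 0.06 and 0.02. The median of the 10 genes was 0.27 and 0.11 for footprinting pair 1 with RNA-Seq pairs 1 and 2. For footprinting pair 2 it was 0.25 and 0.02. Over all transcripts these medians were -0.02, -0.03, 0.04 and 0.04.

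The genes were also described by features that did not choose them. In the mouse assembly NCBIM37 (mm9), *Penk* lies on chromosome 4 (4060678 to 4065966), *Sst* on chromosome 16 (23889667 to 23890930), *Scg2* on chromosome 1 (79431244 to 79436665), *Chga* on chromosome 12 (103793179 to 103803237) and *Vgf* on chromosome 5 (137506165 to 137509221). *Tac1* (7505071 to 7512973) and *Npy* (49772709 to 49779506) share chromosome 6. *Pdyn* (129512301 to 129525580), *Scg5* (113616519 to 113669278) and *Chgb* (132607014 to 132620815) share chromosome 2, and no gene neighbours another of the 10. Coding sequences run from 291 bases in *Npy* to 2031 in *Chgb*, and *Scg2* and *Vgf* each have the whole coding sequence of 1851 bases in 1 exon. The folding energy of the 5′UTR, deposited as the lowest over isoforms, ran from -182.2 kcal/mol for *Chgb* and -123.2 for *Penk* to -18.6 for *Npy*, around a median of -90.4 over the transcripts of the LRRK2 KO table. *Npy*, with the least structured of these leaders, and *Chgb*, with the most structured, had the lowest TE of the 10 in different controls.

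The promoters of the genes were searched for the cAMP response element, through which CREB drives transcription of *Sst* and other peptide genes. RefSeq promoters of GRCm38.p6, from 250 bases before to 50 after the gene start, were found for 8 of the 10 genes, all but *Penk* and *Vgf*. The full motif TGACGTCA, which reads the same on both strands, occurs in 588 of 32851 promoters (1.79%). It occurs in 3 of the 9 promoters of the 8 genes, and these belong to 3 genes, *Sst*, *Scg2* and *Chgb*. The shorter motif TGACG, which is part of the full one and was searched on both strands, occurs in 20.8% of promoters. It occurs in 6 of the 9 promoters, which belong to 6 of the 8 genes, *Sst*, *Tac1*, *Scg2*, *Scg5*, *Chga* and *Chgb*. The windows with the full motif in capitals are shown on the strand of the gene, to let the flanks be compared, from chr16:23890874-23890903 (minus strand) for *Sst*, chr1:79440076-79440105 (minus strand) for *Scg2* and chr2:132781559-132781588 (plus strand) for *Chgb*.
Sst: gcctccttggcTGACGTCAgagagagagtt
Scg2: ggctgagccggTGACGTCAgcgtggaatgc
Chgb: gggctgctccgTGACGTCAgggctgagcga
The first base of the motif lies 48, 68 and 72 bases before the gene start. A match is a description of the letters.

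The machinery that handles the peptides was listed for 17 of 18 symbols in each table. Of these genes, 0 of 17 passed a footprinting change of 0.5 in GS LRRK2 TG or LRRK2 KO, beside 0.34% and 2.07% of all transcripts, and 1 of 17 did in GS/DA LRRK2 TG, beside 0.82%, *Cadps2*, a factor for vesicle release, which rose from 274.3 to 467.6 footprints and from 420.3 to 772.1 RNA-Seq reads. *Pcsk1*, a convertase that cleaves precursors, rose in RNA-Seq in GS/DA LRRK2 TG from 226.4 to 332.9 and fell in LRRK2 KO from 126.7 to 87.9. In LRRK2 KO the RNA-Seq of *Sv2b*, a vesicle protein, fell from 948.6 to 651.4 too, and TE up held for 3 of 17 (*Pcsk1*, *Syt4* and *Sv2b*), beside 6.23%, and TE down for 1 (*Pcsk1n*, an inhibitor of the convertase), beside 6.02%. TE up in GS LRRK2 TG held for *Scg3* and *Syt4*, 2 of 17, beside 8.01%. The most abundant per kilobase of the list, *Rab3a*, changed by 0.04, 0.07 and 0.06 in footprinting. As a list the median footprinting change was 0.04, 0.09 and 0.03, beside 0.00, -0.01 and 0.02 over all transcripts, and the median RNA-Seq change -0.04, 0.21 and -0.03, beside -0.02, 0.06 and 0.01.

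Of 20 other neuropeptide precursors only *Cck* and *Nts* are in the tables. *Cck*, which cortical as well as other neurons make, went from 457.3 to 976.1 footprints and from 326.7 to 595.7 RNA-Seq reads in GS/DA LRRK2 TG, where the cortical markers rose, and from 636.5 to 443.9 and from 623.3 to 395.5 in LRRK2 KO. *Nts*, the neurotensin precursor, went from 218.2 to 147.6 and from 208.8 to 123.8 in GS/DA LRRK2 TG, and from 38.3 to 64.2 and from 26.1 to 40.3 in LRRK2 KO, the latter at low reads. Both passed 0.5 in both assays of these comparisons, which none of the 10 genes did. Neither passed it in GS LRRK2 TG. Their part in any cell type was not tested.

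Of the cell marker lists, the transcripts past a change of 0.5 in an assay or a z score of 1.5 in size, at most 5 for each list, include these. GS LRRK2 TG had *Sp9*, *Calb2*, *Slc17a7*, *Zic1*, *Mobp*, *Aqp4*, *Gja1*, *C1qa*, *Ttr*, *Enpp2*, *Beta-s* and *Hbb-b1*. GS/DA LRRK2 TG had *Drd1a*, *Tbr1*, *Slc17a7*, *Neurod6*, *Ttr* and *Clic6*. LRRK2 KO had *Slc5a7*, *Kit*, *Tbr1*, *Rtn4r*, *Fezf2*, *Slc1a2*, *C1qb*, *C1qa*, *Ttr*, *Clic6*, *Hba-a2*, *Beta-s* and *Hbb-b1*. Most abundant per kilobase in other lists were *Hap1* for septum, pallidum and hypothalamus, *Hba-a2* for blood and, for choroid plexus, *Ttr* in the transgenic tables and *Enpp2* in the LRRK2 KO table.

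Receptors of the peptides were listed for 4 of 13 symbols in the transgenic tables and 8 of 13 in the LRRK2 KO table. The most abundant per kilobase were *Oprk1*, *Tacr1* and *Oprl1* in the order of the tables. In footprinting 0 passed a change of 0.5 in any table, beside 0.338%, 0.816% and 2.07% of all transcripts. In RNA-Seq 1 of 4 did in GS/DA LRRK2 TG, beside 2.72%, the dynorphin receptor *Oprk1*, from 145.7 to 207.1. In LRRK2 KO 1 of 8 did, beside 3.18%, the somatostatin receptor *Sstr2*, from 56.3 to 102.9. TE in LRRK2 KO was down for 1 of 8, *Sstr2* (z -1.77), beside 6.02%. It was up for 1 of 8, *Sstr1* (z 1.58), beside 6.23%, and both receptors had low reads.

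The transcripts with the changes most like each gene were found by Euclidean distance over the 6 log2 changes of the group means, each divided by its SD, among 5362 transcripts with all means above the authors' read minimum. These changes come from comparisons of which 2 share controls. *Penk* had the most distant nearest transcripts, *Rgs4* (2.01), *Gprin3* (2.04) and *Arpp19* (2.10), against a median of 5.64 over all transcripts. *Sst* had the nearest, *Lmo4* (0.388), *Aldh3a2* (0.516) and *Edf1* (0.533), with a median of 2.53. Nearest to *Pdyn* were *Slc4a10* (0.780), *Ppm1k* (1.06) and *Lsamp* (1.13), and to *Tac1* *Tprkb* (1.25), *Taf9* (1.29) and *Ube2d2* (1.29). To *Npy* they were *Fdft1* (0.992), *Ptk2* (1.01) and *Ppp2r5b* (1.07). Among the granins, *Scg2* had *Rcn2* (0.742), *Nedd4* (0.796) and *Cd9* (0.7998), *Scg5* had *Vdac2* (0.741), *1110004F10Rik* (0.758) and *Ranbp1* (0.787), and *Chga* had *Kndc1* (1.15), *Cntn2* (1.299) and *Pak1* (1.33). *Chgb* had *Strbp* (0.565), *Ctr9* (0.737) and *Cct8* (0.752), and *Vgf* had *Tsen34* (1.10), *Eif2b1* (1.37) and *Dnpep* (1.41). None of the 10 genes was among the 3 nearest of another.

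Limits of the comparisons follow from the samples. GS LRRK2 TG has no resolved control library, each transgene comes from a single line, and both transgenic comparisons rest on RNA-Seq libraries that differ along GC content. LRRK2 KO has 2 libraries a group in each assay that differ more from each other than from the other genotype, and the means hold 2 of the 3 footprinting samples of WT and of LRRK2 KO.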

How the data were processed

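The authors aligned reads to mm9 with TopHat2 2.0.11 and Bowtie2 2.2.2, counted them over coding sequences, discarded transcripts with few reads and deposited, per group and assay, a signal: the mean of reads normalised with DESeq 1.20, without an SD. The deposited signals are group means without counts per sample, and edgeR was not run on the reads recovered from them. The authors' own TE columns were not used. TE, changes and z scores were recomputed without a pseudocount. Reads of 2 libraries were recovered as whole numbers of 2 step sizes, a method tested on simulated data. limma 3.58.1 (R 4.3.3) was fitted to log2 of normalised reads plus 10, with Benjamini-Hochberg adjustment. Python 3.11.15, numpy 2.4.6, pandas 2.3.3, scipy 1.17.1 and matplotlib 3.10.9 did the rest. Alternatives were filters, pseudocounts, scalings, cutoffs, single libraries and leave-one-out. No table gives values for the ventral midbrain. The genes and lists were chosen with earlier results of these data known. Named genes are all members, the 3 transcripts most like each, and from each list at most 5 past a cutoff and the most abundant; others were named after their values were seen.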

Additional observations from a re-analysis of the deposited data

How the results depend on the processing

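In all, 316 values were computed again under alternatives, of which 221 kept within the spread between libraries or within 1.5 times the count and 95 moved. The counts of genes in the 56 limma fits were 0 throughout, so none of them moved. The TE up count moved in 3 of 11 alternatives for GS LRRK2 TG, 4 of 19 for GS/DA LRRK2 TG and 16 of 19 for LRRK2 KO. The median TE difference moved in 1 of 8, 2 of 16 and 9 of 16 in the same order. Pseudocounts, filters and scalings moved few. Every limma fit called 0 of the genes at an adjusted p under 0.05, also with the matched libraries as a batch block and with each library left out. Over all transcripts the block called 23 of 8428 in GS/DA LRRK2 TG footprinting, 15 of 9549 in LRRK2 KO footprinting and 11 of 9534 in LRRK2 KO RNA-Seq, and 0 in the other fits. Leave-one-out called 13, 26, 18 and 2 of 8428 in GS/DA LRRK2 TG footprinting and 0 elsewhere. Leave-one-out of limma was chosen after seeing the data, while the other alternatives were listed with the earlier results of these data known. Where leave-one-out leaves 1 sample in an arm, the lone sample is assumed to vary like the others. No paired analysis was possible because the deposited columns carry no replicate numbers, and the block used libraries matched by their values. Coding reads exceed the mapped reads of all other samples of the group for 2 libraries only, which makes the deeper footprinting libraries of the non-TG control and of GS/DA LRRK2 TG replicates 3 and 2. As GS/DA LRRK2 TG has 2 footprinting samples, its shallower library is then replicate 1. The shallower control library is replicate 1 or 2, so for footprinting those groups share 1 number. The other numbers were not settled, except that the deeper LRRK2 KO footprinting library is not replicate 1.

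GS LRRK2 TG: TE down went from 0 to 2 at a z cutoff of 1 (beside 12.9% of all transcripts), TE up from 1 to 0 at 2 (3.71%), and 2 genes passed an RNA-Seq fold of 0.3 (13.3%) in place of 0. GS/DA LRRK2 TG: TE up was 1 at a z cutoff of 1 (11.5%), the median RNA-Seq change was -0.01 when centred on all transcripts, and 2 genes passed a fold of 0.3 in footprinting (4.13%) and 2 in RNA-Seq (11.4%), with 0 in footprinting at a fold of 1 (0.14%). In single libraries of GS/DA LRRK2 TG, footprinting pair 1 with RNA-Seq pair 2 gave TE up 2 (3.97%) and a median TE difference of 0.29, and pair 2 with pair 1 gave TE down 1 (2.99%). Within footprinting pair 1 the median change was 0.10 and within pair 2 it was 0.08, over the 9 genes other than *Penk*, with 0 and 0 of them past 0.5 (1.14% and 1.5%). The count was 1 before because of *Penk*, whose unresolved reads pass 0.5 within at least 1 pair in all 4 combinations, so the fall to 0 comes from its absence. Within RNA-Seq pair 1 the median was -0.04, and within pair 2 the count was 1 (9.67%).

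LRRK2 KO: TE up was 2 with means of at least 2 times the read minimum (6.38%), 3 at a z cutoff of 1 (14.3%), 0 at a cutoff of 2 (2.90%) and 2 with the median and MAD (7.60%), and 2 genes passed a fold of 0.3 in footprinting (9.90%) and 2 in RNA-Seq (17.2%). In single libraries TE up was 2 (*Pdyn* and *Vgf*) for footprinting pair 1 with RNA-Seq pair 1 (5.86%), 0 for pair 1 with pair 2 (5.87%), 0 for pair 2 with pair 1 (6.44%) and 0 for pair 2 with pair 2 (5.75%), where TE down was 1 (5.86%) and the median TE difference 0.02, so *Tac1* was called in none of the 4. Within footprinting pair 1 the median change was 0.04, within footprinting pair 2 the count past 0.5 was 1 (7.09%), within RNA-Seq pair 1 it was 1 (22.6%), and within RNA-Seq pair 2 the median change was -0.06.

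Leave-one-out ranges follow, lowest to highest. GS LRRK2 TG: TE up 0 to 1, TE down 0 to 3, median TE difference -0.20 to 0.08, median footprinting change 0.06 to 0.16, footprinting past 0.5 0 to 2, median RNA-Seq change 0.06 to 0.35, RNA-Seq past 0.5 4 to 6. GS/DA LRRK2 TG, without *Penk* wherever a footprinting library is left out: TE up 0 to 1, TE down 0 to 1, median TE difference -0.15 to 0.26, median footprinting change 0.02 to 0.17, footprinting past 0.5 0 to 1 (beside 1.51% to 2.72% of all transcripts), median RNA-Seq change -0.27 to 0.10, RNA-Seq past 0.5 3 to 6. LRRK2 KO: TE up 0 to 10, TE down 0 to 10, median TE difference -0.95 to 1.26, median footprinting change -0.96 to 0.95, footprinting past 0.5 6 to 10, median RNA-Seq change -1.22 to 0.96, RNA-Seq past 0.5 0 to 10. The cause was not tested for any of these.

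The limits are those of 2 libraries per group and assay. The spread between libraries of a group is as large as most changes, which recovered footprinting and RNA-Seq libraries come from the same divided lysate was not worked out, and footprinting libraries of the LRRK2 KO table hold fewer reads than those of the transgenic tables. The link between WT and LRRK2 KO libraries, and between non-TG control and GS/DA LRRK2 TG libraries, was read from the values. Reads of *Penk* could not be resolved to 1 pair in GS/DA LRRK2 TG footprinting. Each recovered mean holds 2 libraries, most of them not assigned to samples of the labels, and no table gives values for the ventral midbrain.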
